A study of Mus musculus with 4 samples.

Results

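The purinergic genes of macrophages examined here were 7 receptors for extracellular nucleotides (P2rx4, P2rx7, P2ry2, P2ry6, P2ry12, P2ry13 and P2ry14), the nucleotide-degrading enzyme gene Entpd1 (CD39), and 2 adenosine receptors, Adora2a and Adora2b. They were taken as the probe sets whose annotation gives only 1 of these 10 symbols, a probe set being several short probes read out as 1 value. Of the 10 genes, 8 had such probe sets, 15 in all, among 18193 genes with a value. No probe set in the annotation used here names Adora2a or Adora2b, and they are not analysed here.

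The RNA came from macrophages grown from mouse bone marrow for 5 days with 10% serum and 10% L929 cell supernatant, which supplies macrophage colony-stimulating factor. All cells had the C57BL/6 background. They were wild type (WT) or Hes1 and Hey1 double knockout (DKO), lacking a pair of transcriptional repressors downstream of Notch, and the labels do not say how or in which cells the genes were deleted. Each genotype was left untreated or given 2 ng/ml of lipopolysaccharide (LPS, from Escherichia coli) for 3 h, and the study examined which inflammatory genes Hes1 and Hey1 regulate. Each of the 4 groups had 1 array, so there was no replicate check, no test and no p-value, and the number of arrays limits the precision.

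Stressed and dying cells release ATP and other nucleotides, which act as danger signals. P2X receptors are ATP-gated cation channels, whereas P2Y receptors are G protein-coupled and differ in the nucleotide they prefer. In macrophages P2RX7 is best known for triggering the NLRP3 inflammasome and release of mature interleukin 1 beta, P2RY2 for sensing the ATP and UTP of apoptotic cells, and P2RY6 for sensing UDP. CD39 on the cell surface converts ATP and ADP to AMP, from which adenosine is made, and the adenosine receptors dampen inflammatory output.

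Intensities are in array units on a linear scale, on which the authors' values had a mean of 500.0 on each array after trimming 2% at either end. A floor was set at 52.9 units, the median intensity over all probe sets and arrays, and dimmer values were raised to it ahead of the log2 step. Where 1 array of a comparison was under the floor, the difference is given as a lower limit (at least so many fold). A gene is counted as higher or lower at 2-fold, and its value is that of its brightest probe set. Levels of different genes are not compared, since each probe set has its own response.

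As checks on the arrays, all 8 macrophage markers were above the floor on all 4 arrays. No neutrophil, dendritic cell or B cell marker with a value was above it on any. The T cell, mast cell and stromal lists each had 1 marker above the floor on some array, the microglia and endothelial lists 2 and the platelet list 3. On all 4 arrays the T cell, mast cell and microglia lists each had 1 above it, the endothelial and platelet lists 2 and the stromal list 0. Of 5 endothelial markers, those above the floor were Vwf, at 1293 to 1869 units, and Kdr, at 286 to 635 units. Cdh5, Pecam1 and Tek were under it on all 4 arrays. The targeted genes were dim. Hes1 gave 45.4 and 26.7 units on the untreated and LPS arrays of WT cells, against 2.14 and 5.80 in DKO cells. Hey1 gave 57.2 and 17.3 against 9.17 and 10.2. All these values except Hey1 on the untreated WT array were under the floor, so loss of either transcript cannot be read from them. In such bulk RNA fewer cells of a kind and less RNA per cell cannot be told apart.

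Several members lie side by side in the genome. P2rx4 and P2rx7 are neighbours on chromosome 5, and P2ry2 and P2ry6 on chromosome 7, with 0 coding genes between the members of each pair. P2ry12 and P2ry13 are likewise adjacent on chromosome 3. The 250 bases before the RefSeq start sites (build GRCm38.p6) of 2 such pairs are shown because the genes of each pair read differently with LPS, as described below. P2ry2 and P2ry6 also read differently with LPS, but no start-site sequence was available here for P2ry6. Capitals mark motif matches on either strand: CACNAG, the N-box of Hes proteins; CACGTG, the E-box that Hes and Hey proteins can also bind; the NF-kB consensus; and TGACG, the core letters of the cAMP response element.
P2rx7, chr5:122643677-122643926, + strand: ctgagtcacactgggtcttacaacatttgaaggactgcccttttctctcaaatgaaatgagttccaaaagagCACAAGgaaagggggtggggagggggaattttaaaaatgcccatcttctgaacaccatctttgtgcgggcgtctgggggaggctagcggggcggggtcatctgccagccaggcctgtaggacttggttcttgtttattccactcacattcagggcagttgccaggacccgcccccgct
P2rx4, chr5:122707294-122707543, + strand: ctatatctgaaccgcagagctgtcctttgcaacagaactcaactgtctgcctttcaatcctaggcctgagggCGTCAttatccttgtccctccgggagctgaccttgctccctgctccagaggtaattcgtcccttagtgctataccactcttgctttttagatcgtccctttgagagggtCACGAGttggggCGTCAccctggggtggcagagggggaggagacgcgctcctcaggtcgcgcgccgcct
P2ry12, chr3:59262986-59263235, - strand: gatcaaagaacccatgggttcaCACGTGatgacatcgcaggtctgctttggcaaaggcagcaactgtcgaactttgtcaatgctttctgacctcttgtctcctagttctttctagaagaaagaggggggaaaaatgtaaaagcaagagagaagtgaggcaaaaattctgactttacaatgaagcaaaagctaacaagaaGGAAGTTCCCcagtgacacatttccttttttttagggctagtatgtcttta
P2ry13, chr3:59210883-59211132, - strand: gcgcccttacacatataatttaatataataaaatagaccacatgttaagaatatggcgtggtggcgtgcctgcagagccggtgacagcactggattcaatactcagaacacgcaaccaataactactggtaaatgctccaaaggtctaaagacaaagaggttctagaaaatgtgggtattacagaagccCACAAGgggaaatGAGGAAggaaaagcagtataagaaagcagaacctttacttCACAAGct

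In these windows P2rx7 has a CACNAG match beginning 178 bases before the start. A second P2rx7 start site, not shown, has no match of any motif searched. P2rx4 has 1 at 69 bases and TGACG at 178 and 57 bases. P2ry12 has CACGTG at 228 bases and the NF-kB consensus at 51 bases. P2ry13 has CACNAG at 61 and 8 bases and GAGGAA, the core of the site bound by the macrophage factor PU.1, at 48 bases. No match overlapped another. Over all 14 start sites listed for 8 of the 10 genes, CACNAG occurred in 6 windows, GAGGAA in 6, TGACG in 3, CACGTG in 2, and CACGCG, a further Hes and Hey site, and the NF-kB consensus in 1 each. Start sites of 1 gene are not independent: 4 of the 6 GAGGAA windows belong to P2ry14, and 2 of these overlap and hold the same match, so GAGGAA was found for 3 genes and CACNAG for 5. Among 32851 windows of the same length, 36.7% held CACNAG, 23.3% GAGGAA, 17.8% TGACG, 6.02% CACGTG, 7.62% CACGCG and 7.25% the NF-kB consensus. The matches describe letters only and are not evidence of binding.

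Of the ATP-gated channels, P2rx7 read lower with LPS in both genotypes, and further so in DKO cells. Its brightest probe set gave 952 units in WT cells without LPS and 523 with it, then 1402 in DKO cells without LPS and 546 with it. The arrays with LPS therefore gave nearly the same level, below both untreated arrays, and the untreated DKO array was the highest of the 4. The LPS arrays read 1.82-fold lower in WT cells (log2 difference -0.86) and 2.57-fold lower in DKO cells (-1.36). Only 5.20% of 11489 genes in WT cells and 2.08% of 11240 genes in DKO cells had a difference at or below that of P2rx7.

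A second P2rx7 probe set moved the same way. It gave 446 and 224 units in WT cells and 671 and 207 in DKO cells, untreated first, which was 1.99-fold and 3.24-fold lower with LPS. The third lay around the floor and carried no usable difference. It gave 61.5 and 36.0 units in WT cells and 46.7 and 58.7 in DKO cells. By the brighter 2 probe sets, untreated DKO cells read 1.47-fold and 1.51-fold above untreated WT cells, and 2.70% of 11379 genes were higher in DKO cells by at least the 0.56 of the brightest. With LPS the 2 probe sets disagreed in sign at 1.04-fold higher and 1.08-fold lower, so no genotype difference in either direction was read there.

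P2rx4, whose channel is the closest relative of P2RX7 and sits largely in lysosomes, stayed within 2-fold with LPS on all 4 of its probe sets. Its brightest probe set gave 3866 and 4143 units in WT cells and 5036 and 4689 in DKO cells. Both DKO arrays were above both WT arrays, and the LPS arrays differed from the untreated ones by 1.07-fold in each genotype, higher in WT and lower in DKO cells. The next brightest probe set gave 1288 and 1287 units in WT cells and 1907 and 1575 in DKO cells. Untreated DKO cells read higher than WT cells by 1.30-fold and 1.48-fold on these probe sets, and cells with LPS by 1.13-fold and 1.22-fold. The 2 dim probe sets, at 80.6 to 216 units, split: 1 gave 2.37-fold higher in untreated DKO cells and the other 1.02-fold lower. The former also read 1.53-fold higher with LPS in WT cells and 1.09-fold lower in DKO cells.

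**Figure D1:**
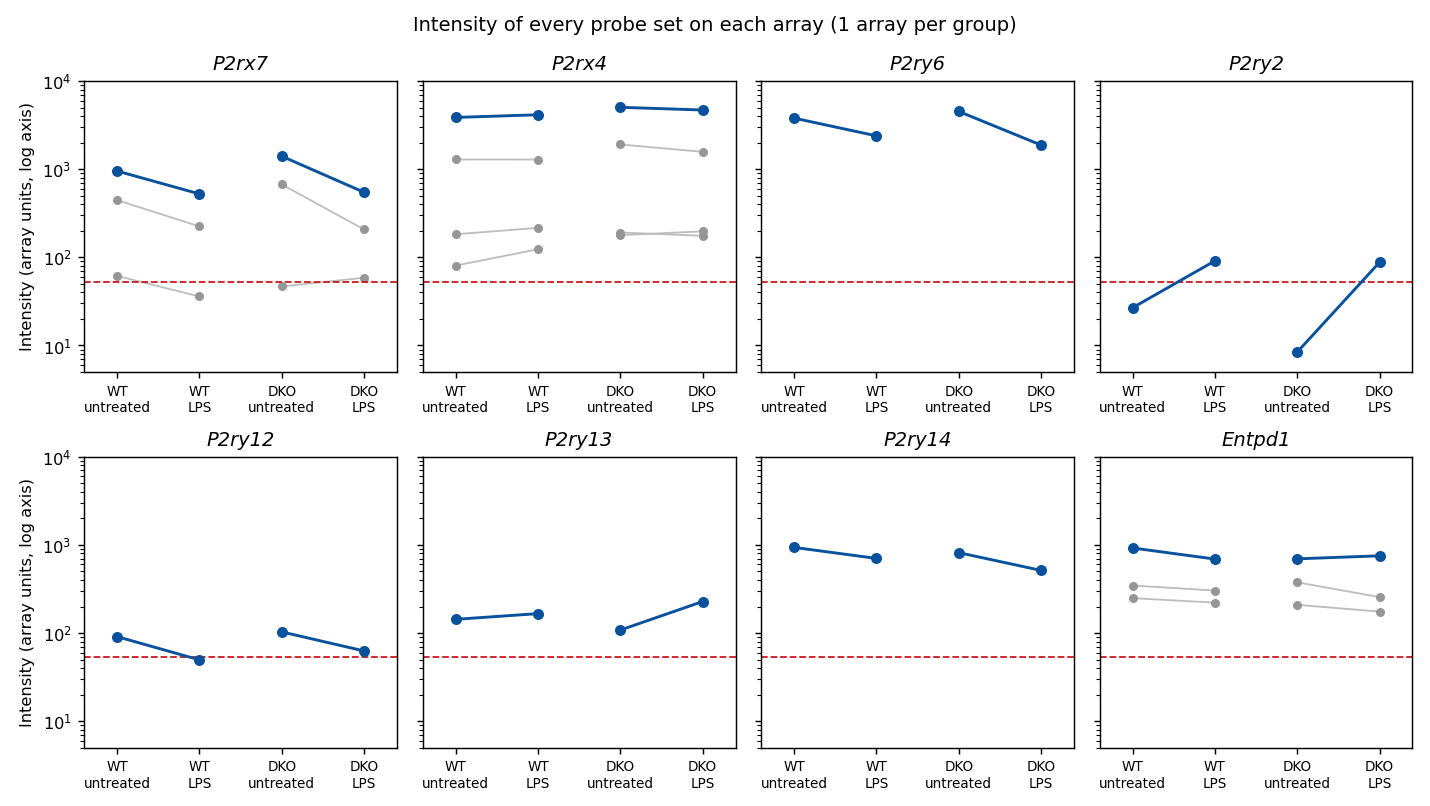
Intensity of each probe set (log axis, array units) on the 4 arrays, 1 panel per gene; blue is the brightest probe set, grey the others, and lines join the untreated and LPS arrays of 1 genotype. The dashed red line is the floor at 52.9 units. P2rx7 and P2ry6 slope down in both genotypes and more steeply in DKO cells, P2ry13 slopes up mainly in DKO cells, and P2ry2 starts under the floor.

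Among the P2Y receptors, P2ry6, the UDP receptor, followed the pattern of P2rx7. Its single probe set gave 3795 and 2389 units in WT cells and 4521 and 1878 in DKO cells, untreated first. The untreated DKO array was the highest and the DKO array with LPS the lowest. With LPS it read 1.59-fold lower in WT cells (log2 difference -0.67) and 2.41-fold lower in DKO cells (-1.27), where 2.61% of genes had a difference at or below it. DKO cells were 1.19-fold above WT cells untreated and 1.27-fold below them with LPS.

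P2ry2, the ATP and UTP receptor encoded next to P2ry6, went the other way. It gave 26.8 and 91.2 units in WT cells and 8.41 and 87.8 in DKO cells. Both untreated arrays were under the floor and both LPS arrays above it. It was thus at least 1.72-fold higher with LPS in WT cells and at least 1.66-fold in DKO cells. These bounds follow from where the floor is set. With the floor at the 35th percentile, 23.8 units, the log2 difference was 1.77 in WT cells and the bound 1.88 in DKO cells. On the LPS arrays the genotypes were 1.04-fold apart.

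The ADP receptors P2ry12 and P2ry13, adjacent on chromosome 3, both read dimly and differed in direction. P2ry12, best known from platelets and microglia, gave 91.0 and 49.6 units in WT cells and 103 and 62.6 in DKO cells. Both LPS arrays lay below both untreated arrays, which was at least 1.72-fold lower in WT cells and 1.65-fold lower in DKO cells. P2ry13 gave 143 and 166 units in WT cells and 108 and 228 in DKO cells. It was 1.16-fold higher with LPS in WT cells and 2.11-fold higher in DKO cells (log2 difference 1.08), where 4.23% of genes had a difference at or above it. The DKO arrays held both the lowest and the highest P2ry13 value, 1.32-fold below WT untreated and 1.37-fold above WT with LPS.

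Markers of the cell types in which P2ry12 is best known stood as follows. Of 5 microglia markers Tmem119, Sall1 and Siglech were under the floor on all arrays, whereas Olfml3 was above it on all, at 651 to 1303 units. Gpr34 was above the floor without LPS only (88.6 units in WT and 82.3 in DKO cells, against 1.97 and 7.17 with LPS), and so moved the same way as P2ry12. The summed level of the microglia list was 1481 and 1343 units in WT cells, untreated first, and 930 and 691 units in DKO cells. Most of this sum was Olfml3 alone, at 1303, 1266, 824 and 651 units in the same order. Of 6 platelet and megakaryocyte markers, 4 had a value, with sums of 238, 293, 176 and 271 units in the same order. The markers did not move together: in WT cells Itga2b gave 148 units untreated and 136 with LPS, whereas Ppbp gave 7.96 and 80.1. None of these markers was listed at 0, but neither was any other probe set on any array, so this says nothing about their presence. The part of these markers in the P2ry12 difference was not tested.

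P2ry14, the receptor for UDP-glucose, gave 936 and 702 units in WT cells and 817 and 513 in DKO cells. Both LPS arrays lay below both untreated arrays, and the DKO array was the lower at either treatment. With LPS it read 1.33-fold lower in WT cells and 1.59-fold lower in DKO cells, short of 2-fold in both. DKO cells were 1.15-fold below WT cells untreated and 1.37-fold below with LPS. With array medians set equal, the untreated difference turned to a log2 value of 0.015.

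The probe sets of Entpd1 read lower with LPS in WT cells and disagreed in DKO cells. The brightest gave 922 and 691 units in WT cells and 694 and 752 in DKO cells, so the untreated WT array stood above the other 3. The next gave 346 and 303 in WT cells and 376 and 256 in DKO cells. The dimmest gave 249 and 221 in WT cells and 209 and 175 in DKO cells. With LPS all 3 read lower in WT cells, by 1.34-fold, 1.14-fold and 1.12-fold in that order. In DKO cells the brightest read 1.08-fold higher, and the other 2 read 1.47-fold and 1.19-fold lower.

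**Figure D2:**
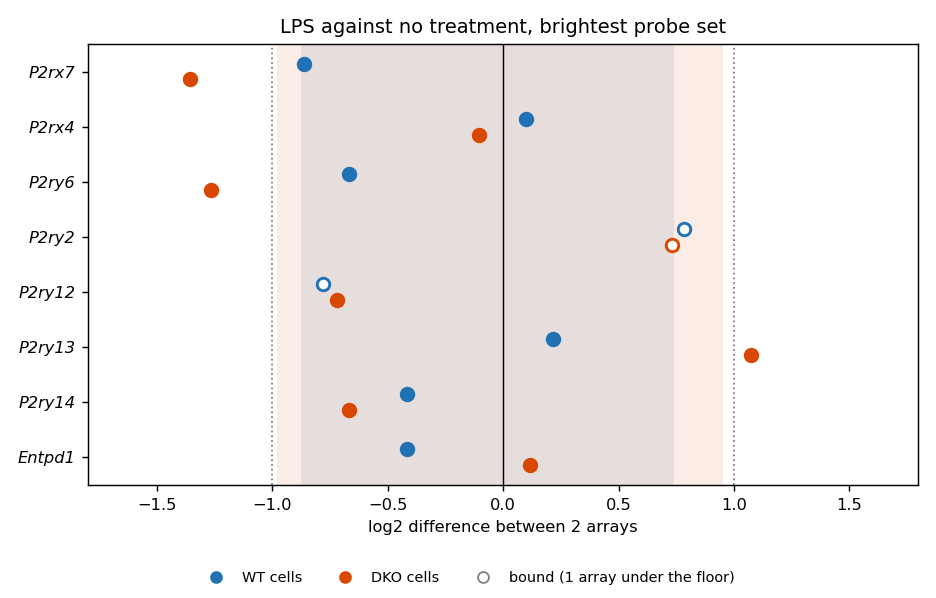
The log2 difference between the LPS and the untreated array for each gene, by its brightest probe set, in WT (blue) and DKO cells (orange); open circles are bounds, dotted lines mark 2-fold, and the shaded bands hold the central 90% of all measured genes. P2rx7 and P2ry6 in DKO cells lie beyond 2-fold lower and P2ry13 in DKO cells beyond 2-fold higher, while no gene passes 2-fold in WT cells.

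By count, none of the 8 genes was higher and none lower at 2-fold with LPS in WT cells, against a background of 3.36% of 11489 genes higher and 3.41% lower (4.58% and 1.71% with equal medians, 3.77% and 2.25% under quantile normalization). In DKO cells 1 of 8 was higher, P2ry13, against 4.66% of 11240 genes, and 2 were lower, P2rx7 and P2ry6, against 4.77%. At 1.5-fold, WT cells gave 1 higher (P2ry2; 6.93% of all genes) and 3 lower (P2rx7, P2ry6 and P2ry12; 12.9%). DKO cells gave 2 higher (P2ry2 and P2ry13; 8.94%) and 4 lower (P2rx7, P2ry6, P2ry12 and P2ry14; 14.5%). The median log2 difference of the 8 genes was -0.42 in WT and -0.39 in DKO cells, against -0.086 and -0.10 over all genes, with bounds held at their bound. These counts of few genes describe the arrays and set nothing apart.

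Setting array medians equal, which raises the median difference of all genes by 0.21 for LPS in WT cells and by 0.0072 in DKO cells, left P2rx7 at -0.65 and -1.35 and P2ry6 at -0.45 and -1.26. In 4709 genes, 2 or more probe sets exceeded the floor on every array, and the LPS differences read by the brightest and the next brightest were a median of 0.26 log2 units apart in WT and 0.20 in DKO cells. The 90th percentile of this gap was 0.72 and 0.62, and it does not include variation between cultures. In DKO cells P2rx7, P2ry6, P2ry12, P2ry13 and P2ry14 lay beyond the 90th percentile under the authors' scaling and with equal medians. The bound of P2ry2 did so too, and P2rx4 and Entpd1 lay within it. In WT cells the bound of P2ry2 lay beyond it under either. P2rx7 and the bound of P2ry12 lay beyond it under the authors' scaling but not with equal medians. P2rx4, P2ry6, P2ry13, P2ry14 and Entpd1 lay within it under either. Under quantile normalization P2ry14 in DKO cells (-0.58) fell within the 90th percentile, and P2ry12 in DKO cells (-0.64) lay only just beyond it. In WT cells P2ry12 (-0.62) then lay within it and P2rx7 (-0.77) beyond it.

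Comparing the genotypes at 1 treatment asks what loss of Hes1 and Hey1 changes in these genes. Differences were small. Without LPS the largest were P2rx7 (1.47-fold higher in DKO cells), Entpd1 (1.33-fold lower by its brightest probe set), P2ry13 (1.32-fold lower) and P2rx4 (1.30-fold higher). The other Entpd1 probe sets disagreed, at 1.09-fold higher and 1.19-fold lower. P2ry2 was under the floor on both arrays and has no difference. The gap between probe sets of a gene had a 90th percentile of 0.559 here. All 7 measured genes lay within it under the authors' scaling, P2rx7 only just, at 0.557. None of the 7 measured genes passed 2-fold, where 0.466% of 11379 genes were higher and 0.984% lower (0.864% and 0.383% with equal medians, 0.588% and 0.623% after quantile normalization), and none passed 1.5-fold, where 2.36% were higher and 4.97% lower. With equal medians P2rx7 (log2 difference 0.77) and P2rx4 (0.59) passed 1.5-fold higher, but this setting raises the median of all genes by 0.21. P2rx7 also passed under quantile normalization and by the median over its probe sets (0.59 in each). These values lay beyond the 90th percentile of the gap. The share of all genes past 1.5-fold is not given for these settings, so these calls cannot be set against all genes.

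With LPS the largest genotype differences were P2ry13 (1.37-fold higher in DKO cells), P2ry14 (1.37-fold lower) and P2ry6 (1.27-fold lower). P2ry12 was at least 1.18-fold higher. All 8 genes lay within the 90th percentile of the gap between probe sets, 0.55 here, under the authors' scaling. None of the 8 genes passed 2-fold, against 0.845% of 11236 genes higher and 0.934% lower, and none passed 1.5-fold, against 4.03% and 5.03%. The median over the measured members was 0.18 untreated and 0.092 with LPS, against -0.017 and -0.040 over all genes. With array medians set equal, the median of all genes for untreated cells moved by 0.21.

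**Figure D3:**
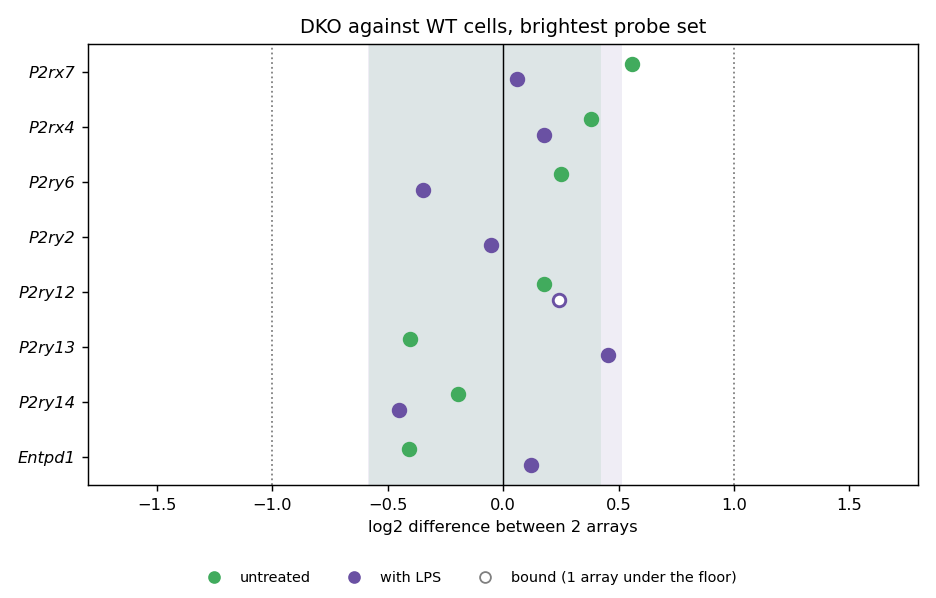
The log2 difference between the DKO and the WT array for each gene, by its brightest probe set, untreated (green) and with LPS (purple); the open circle is a bound, dotted lines mark 2-fold, and the shaded bands hold the central 90% of all measured genes. All points lie within 2-fold, and P2ry6, P2ry13 and Entpd1 change sign between treatments.

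The difference of the LPS effects, DKO minus WT, uses all 4 arrays and was taken for the 6 genes above the floor on each. It was 0.86 on the log2 scale for P2ry13, a 1.82-fold larger ratio in DKO cells, and 2.03% of 9981 genes were at or above it. It was -0.60 for P2ry6, with 4.11% of genes at or below it, -0.50 for P2rx7 and -0.70 for the second P2rx7 probe set. P2ry14 stood at -0.25 and P2rx4 at -0.20. Entpd1 gave 0.53 by its brightest probe set and -0.37 and -0.085 by the others. At 2-fold none of the 6 was counted, against 1.31% of genes higher and 0.721% lower (0.82% and 1.71% with equal medians). At 1.5-fold 1 was higher, P2ry13, and 1 lower, P2ry6, against 5.22% and 4.41%. The gap between probe sets of a gene had a median of 0.27 and a 90th percentile of 0.78 here. P2ry13 lay beyond the latter under the authors' scaling, whereas P2ry6 and the 2 P2rx7 probe sets lay within it. P2ry13 lay within it under quantile normalization (0.74) and with equal medians, where P2ry6 lay beyond it. The brightest P2rx7 probe set stayed within it with equal medians, at -0.71. With equal medians, which moves the median of all genes by -0.21, P2ry13 stood at 0.65, P2ry6 at -0.81, P2ry14 at -0.46 and P2rx4 at -0.41.

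Of 54 other genes of purine signalling, in 5 lists, 36 had a measured LPS difference in WT cells and 35 in DKO cells. In WT cells 2 were higher and 2 lower at 2-fold, against 3.36% and 3.41% of all genes, and in DKO cells 2 higher and 4 lower, against 4.66% and 4.77%. Among the other purine receptors, 9 of 10 had a value and 1, P2ry1, was above the floor on all arrays. P2ry1, an ADP receptor best known from platelets, gave 86.6 and 63.1 units in WT cells and 232 and 54.9 in DKO cells. The untreated DKO array stood apart from the other 3, 2.67-fold above untreated WT, and P2ry1 was 4.22-fold lower with LPS in DKO cells and 1.37-fold lower in WT cells.

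In adenosine uptake and metabolism, 1 of 7 measured genes was higher with LPS in each genotype (3.36% of all genes in WT and 4.66% in DKO cells) and 1 lower (3.41% and 4.77%). The higher was Ampd3, an AMP deaminase that turns AMP to IMP, at 1875 and 5366 units in WT cells and 1566 and 7631 in DKO cells (2.86-fold and 4.87-fold). The lower was Slc29a3, a lysosomal nucleoside transporter, at 2140 and 931 units in WT cells and 1997 and 635 in DKO cells (2.30-fold and 3.14-fold). Its other probe set gave 1090 and 393 units and 773 and 385 units. The uptake transporter gene Slc29a1 and the adenosine-consuming enzyme genes Ada and Adk did not pass 2-fold in any comparison.

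None of the ectonucleotidases (6 measured in WT and 5 in DKO cells, of 12) and none of 4 ATP release genes was counted at 2-fold with LPS, against the same shares of all genes. The connexin gene Gja1 had only a lower limit, at least 1.99-fold higher in WT cells (32.0 and 105 units) and at least 1.84-fold in DKO cells (45.8 and 97.5 units), so its difference may exceed 2-fold. Nt5e, which encodes CD73 and makes adenosine from AMP, was dim at 88.3 and 44.3 units in WT cells and 69.9 and 55.5 in DKO cells. The ATP release channel gene Panx1 gave 469 and 644 units in WT cells and 406 and 493 in DKO cells, 1.37-fold and 1.21-fold higher with LPS.

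In G protein and cAMP signalling, through which the adenosine and P2Y receptors act, 1 of 16 genes was higher with LPS in each genotype (3.36% of all genes in WT and 4.66% in DKO cells), and 1 was lower in WT and 2 in DKO cells (3.41% and 4.77%). The higher was Pde4b, a phosphodiesterase that degrades cAMP, at 163 and 2458 units in WT cells and 112 and 3658 in DKO cells (15.1-fold and 32.5-fold). The adenylyl cyclase gene Adcy9 was lower in both genotypes (2.28-fold and 2.44-fold), at 447 and 196 units in WT cells and 575 and 236 in DKO cells. Its other probe sets also read lower. The next brightest, at 402 and 127 units in WT and 540 and 237 in DKO cells, passed 2-fold. Those at 295 and 192 (WT) and 314 and 211 (DKO), and at 223 and 119 (WT) and 197 and 126 (DKO), fell short of it. The phospholipase C gene Plcb2 was lower in DKO cells only, at 598 and 285 units (2.10-fold, against 1.34-fold in WT cells). Between genotypes, P2ry1 was the 1 gene past 2-fold of 34 measured untreated, where 0.466% of all genes were higher and 0.984% lower. None of 35 passed with LPS, where 0.845% were higher and 0.934% lower.

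**Figure D4:**
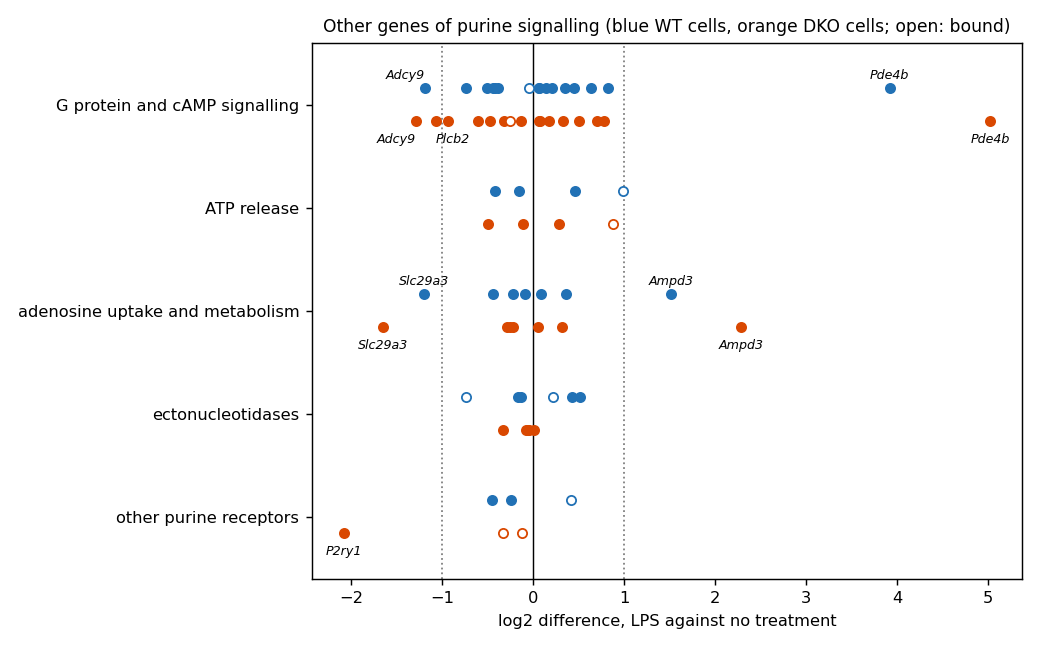
The log2 difference between the LPS and the untreated array for other genes of purine signalling, by list, in WT (blue) and DKO cells (orange); each point is 1 gene, open points are bounds and dotted lines mark 2-fold. Pde4b and Ampd3 lie to the right and Slc29a3, Adcy9 and, in DKO cells, P2ry1 and Plcb2 to the left, with the other points, limits among them, drawn inside the 2-fold lines.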

How the data were processed

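RNA of 4 samples, 1 per genotype and treatment, was amplified, labelled with biotin and hybridised, per the labels' protocols. The deposited table holds 1 intensity per probe set and array for 45101 probe sets. No source used here names the tool that made it. From the values, the authors had scaled each array to a common trimmed mean, which leaves dim probe sets free to differ: array medians ran from 50.8 to 59.1 units, the highest on the untreated WT array. After removal of 64 controls, 34945 probe sets named 1 gene, 932 several and 9160 none. Symbols of 34741 were updated by Entrez identifier from RefSeq (GRCm38.p6), which also gave gene order and start-site sequences. Comparisons are log2 differences of the brightest probe set after the floor, tested on simulated data. All 10 members and every pathway gene past 2-fold between any 2 arrays compared are named. Outside that rule and after their values were seen, Slc29a1, Ada, Adk, Nt5e and Panx1 were named for their role. Gja1 was named for its lower limit, likewise outside the rule and after its values were seen. The members and lists were chosen with earlier results of these data known. Alternatives covered scaling, floor, probe set rule and threshold. Python 3.11.15, numpy 2.4.6 and pandas 2.3.3 were used.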

Additional observations from a re-analysis of the deposited data

Results flagged for a closer look

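P2rx4 and Entpd1 had LPS differences of opposite sign in WT and DKO cells, each from 1 array per group, and the difference between genotypes was not tested. For P2rx4 the log2 difference was 0.10 in WT and -0.10 in DKO cells by the brightest probe set. Of its other probe sets, 1 gave 0.62 and -0.12, 1 gave 0.24 and 0.14, and the next brightest gave -0.28 in DKO cells with 1288 and 1287 units in WT cells. For Entpd1 it was -0.42 in WT and 0.11 in DKO cells by the brightest probe set, while the other 2 probe sets read lower with LPS in both genotypes.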

How the results depend on the processing

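Each count at 2-fold was recomputed with array medians set equal, quantile normalization, a floor at the 35th or the 65th percentile, 16 units added in place of a floor, the median over the probe sets of a gene, and thresholds of 1.5-fold and 3-fold. For LPS in WT cells, the count of 0 higher became 1 (P2ry2) with the floor at the 35th percentile, with no floor and at 1.5-fold, and the count of 0 lower became 3 at 1.5-fold. For LPS in DKO cells, the count of 1 higher became 2 with the floor at the 35th percentile and at 1.5-fold, and 0 with the floor at the 65th percentile and at 3-fold, and the count of 2 lower became 4 at 1.5-fold and 0 at 3-fold. For the difference of LPS effects, the counts of 0 became 1 higher and 1 lower at 1.5-fold. The counts between genotypes stayed at 0 under all 8 settings. The share of all genes is not given for the changed floors, no floor, the median over probe sets or 3-fold. A moved count there cannot be set against all genes and is not read as a result about these genes. Of 212 recomputed log2 differences of single genes, 206 kept their sign, and none of those past 2-fold reversed. The other 6 were P2ry14 in untreated DKO against WT cells (0.015 with equal medians) and, with the median over probe sets, P2rx7 in DKO against WT cells with LPS (-0.11) and Entpd1 for LPS in DKO cells (-0.56), for DKO against WT cells untreated (0.12) and with LPS (-0.25) and for the difference of LPS effects (-0.37). P2ry13 for LPS in DKO cells fell to a bound of 0.44 with the floor at the 65th percentile, 168 units, which lies above its untreated level, and to 0.97, short of 2-fold, with 16 units added. In that last setting the count of 1 higher was P2ry2 (2.09) in place of P2ry13. No paired analysis was possible because each group has 1 array. Signal over background limits P2ry2 and P2ry12, whose values lay near the floor.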
